A study of Mus musculus with 12 samples.

Results

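Interleukins are secreted signals between immune and stromal cells, and they and their receptors were taken as the 71 genes, of 18050 in the main expression table, whose symbol begins with Il followed by a digit. By role they are 27 ligands, 37 receptor subunits, 5 antagonists or decoy receptors and 2 enzymes that share the prefix (Il4i1 and Il4i1b). In 48 of them the mean reached 1 CPM (counts scaled to a common library size with TMM) in at least 1 group of libraries, and 42 had enough counts for both statistical tests. RNA was measured by sequencing in the left ventricle of wild type mice, 7 days after myocardial infarction (MI) in 6 libraries and 7 days after sham surgery in 6 libraries. Age, sex, strain and the number of animals behind each library are not given in the sources used here, and p-values therefore measure only the spread between these libraries. The comparison asks which interleukin signals and receptors differ in the infarcted ventricle at that time.

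An interleukin acts only on cells that carry its receptor, and most of these receptors are built from a subunit that binds the ligand and a subunit that is shared with other cytokines. IL-1, IL-18, IL-33 and IL-36 form 1 family that signals through MyD88 to NF-kB, while IL-6 and IL-11 use the shared chain gp130 (gene Il6st) and the JAK and STAT3 route. A further group, with IL-2, IL-4, IL-7, IL-15 and IL-21, uses the common gamma chain (gene Il2rg). Some genes of the family hold signals back: the IL-1 receptor antagonist (Il1rn) occupies the IL-1 receptor without activating it, the IL-18 binding protein (Il18bp) captures IL-18, and decoy receptors bind a ligand but pass on no signal. In the infarcted heart IL-1 and IL-6 are known as early inflammatory signals, IL-33 as an alarmin released by damaged stromal cells, and IL-11 as a fibroblast signal tied to fibrosis.

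Replicates 1 and 2 and replicates 3 to 6 form separate sets, since the submitters' processing notes differ between them, and libraries are named here by group and replicate (MI 1, sham 3). Deposited expected counts summed to 18546662 and 18602226 in MI 1 and 2, to between 14168412 and 14410783 in MI 3 to 6, to 15541334 and 16066681 in sham 1 and 2 and to between 9140353 and 9750764 in sham 3 to 6. Libraries of replicates 3 to 6 lay very close together: the biological coefficient of variation was 0.0208 in MI 3 to 6 and 0.0293 in sham 3 to 6, against 0.192 in MI 1 and 2 and 0.112 in sham 1 and 2. The labels do not say that replicates came from separate animals, so standard deviations, standard errors and p-values that count replicates 3 to 6 as 4 samples a group cannot go beyond library-to-library spread, and that spread may be technical. MI 3 to 6 also stood apart in other ways. The summed level of 8 lung epithelium markers was 186 to 189 CPM there, against 1.07 to 2.38 CPM in sham 3 to 6, and it was 15.5 and 28.2 CPM in MI 1 and 2, against 0.990 and 1.11 CPM in sham 1 and 2. Most of the sum in MI 1 and 2 was Napsa (mean 19.1 CPM). The surfactant genes Sftpc and Sftpa1 averaged 0 CPM in MI 1 and 2, against 114 and 27.7 CPM in MI 3 to 6. The beta-globin copy Hbb-bs averaged 1.76 CPM in MI 3 to 6 and 2514 CPM in sham 3 to 6. In the same libraries Hbb-bt averaged 0.0929 against 461 CPM and the alpha-globin copy Hba-a2 28 against 809 CPM. The other erythroid genes differed far less, with Hba-a1 at 1323 against 1589 CPM and Alas2 at 36.8 against 61 CPM. The part of the lung and globin differences in the results was not tested. All 6 cardiomyocyte markers fell, Myh6 by 2.15 ± 0.42 and Actc1 by 1.52 ± 0.36 on the log2 scale (± standard error, as for all listed genes that are no members), and neither was called without any 1 library of replicates 1 and 2. The markers had a summed level of 5011 to 20602 CPM in MI libraries against 57197 to 74532 CPM in sham libraries. All 8 macrophage markers rose, among them Lyz2 (2.59 ± 0.22) and C1qa (1.25 ± 0.21, not called without sham 1 or without sham 2), with sums of 3413 to 5636 CPM in MI libraries against 607 to 1039 CPM in sham libraries. In bulk tissue, more cells of a type and more RNA per cell cannot be told apart.

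A gene is said to have risen or fallen only where 2 edgeR quasi-likelihood tests called it in the same direction at an adjusted p under 0.05: a 12-library test with the set as covariate, and a 3 against 3 test in which replicates 3 to 6 of a group were summed and counted once. Fold changes are MI over sham on the log2 scale, and their p-values and standard errors are from the 12-library test unless a set is named. Of the 71 genes, 27 rose, 3 fell, 12 were tested and not called, and 29 were not tested in both. Among all 13592 genes tested, 28.1% rose and 29.8% fell (58% in either direction), and among the 42 tested members 64.3% rose and 7.14% fell. A gene of low counts enters the test on the strength of the group in which it is high, so these shares describe the tested members and not all 71. The median log2 fold change of the tested members was 1.23 with all libraries, 1.76 within replicates 1 and 2 alone and 1.06 within replicates 3 to 6 alone, while the median over all genes was 0.01 with all libraries, 0.05 within the first set and 0.03 within the other. The 6 MI libraries exceeded every sham library for 20 of the 42 members (47.6%) and stayed under every sham library for 2 (4.76%), where 21.4% of all tested genes did so in each direction.

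By role, 7 of 11 tested ligands, 1 of 2 tested antagonists and 19 of 29 tested receptors rose, and the 3 genes that fell (Il10rb, Il15ra and Il12rb2) were receptors. Within the IL-1 family 10 of 12 tested genes rose, within the gp130 family 5 of 7, in the gamma chain, beta chain and type 2 group 6 of 11 with 1 that fell, in the IL-10 family 2 of 4 with 1 that fell, in the IL-17 family 2 of 4, and of the IL-12 and IL-23 genes 1 of 2 with 1 that fell. With library size as the only scaling, the median of all genes shifted by 0.42 on the log2 scale, and 6264 genes were called higher and 2477 lower, against 3823 and 4055 under TMM scaling. On that scale 32 members were called higher and 0 lower, so the 3 falls were lost on that scale. Without sham 1 the count of members called was 17, against 30 with all libraries.

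**Figure D1:**
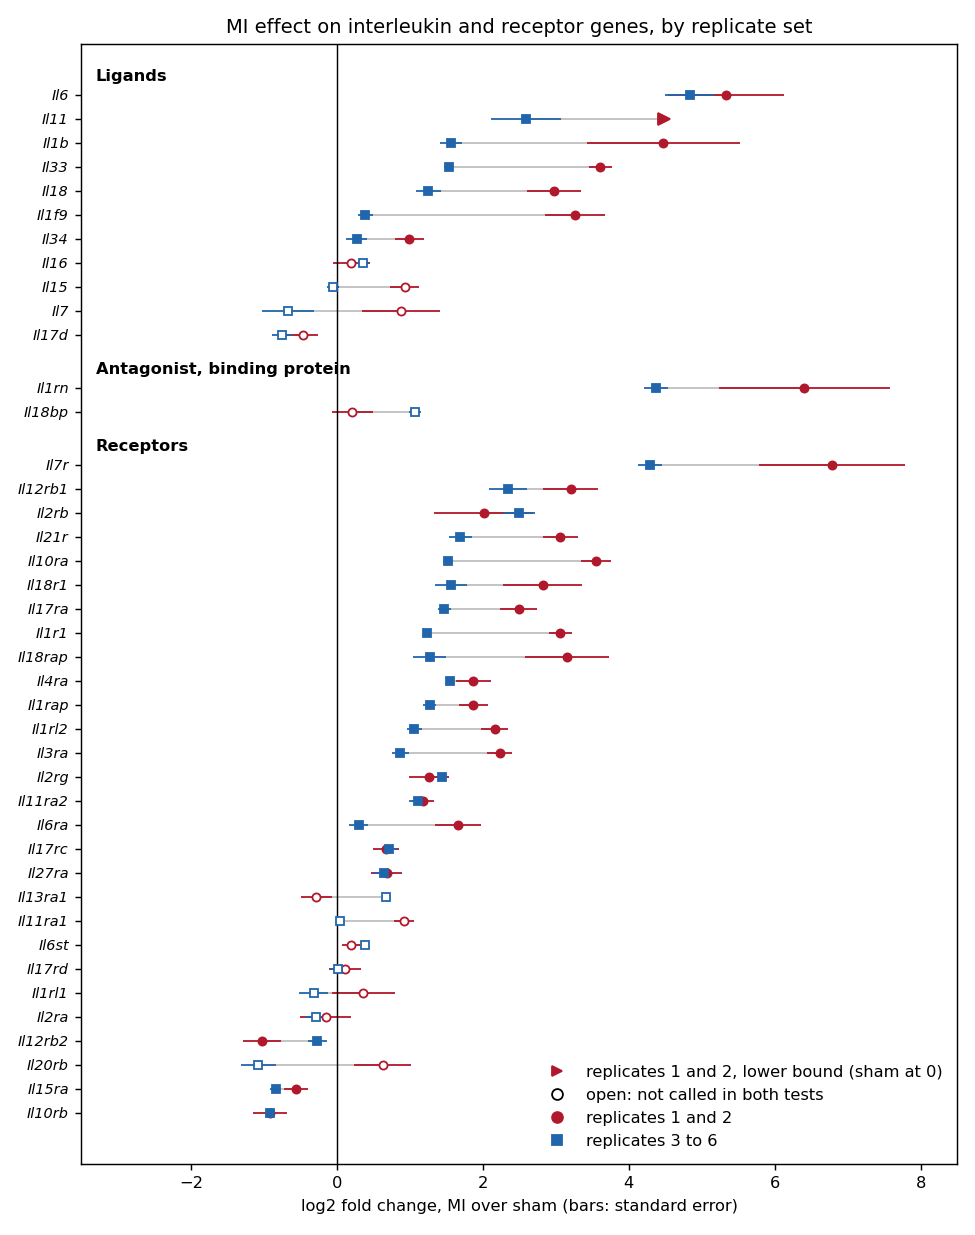
Log2 fold change of MI over sham (x axis) for 41 interleukin and receptor genes tested in both sets, ordered by role, with red circles for replicates 1 and 2, blue squares for replicates 3 to 6 and bars of 1 standard error. Filled symbols mark genes called in both tests; the red triangle marks a lower bound for Il11, which was at 0 counts in sham 1 and 2, and Il6, Il1rn and Il7r lie farthest to the right in both sets.

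The ligands with the largest changes were Il6 and Il11, both of which signal through gp130. Il6 encodes the inflammatory cytokine IL-6 and lies on chromosome 5 (30013114 to 30019975, plus strand, GRCm38). Il6 had 1.97 and 4.72 CPM in MI 1 and 2, against 0.0761 and 0.0741 CPM in sham 1 and 2. Il6 had 4.48, 5.84, 5.35 and 5.27 CPM in MI 3 to 6, against 0.351, 0, 0.12 and 0.241 CPM in sham 3 to 6. Every MI library lay above every sham library, and the sham values were counts of 2 in replicates 1 and 2 and of 6 in replicates 3 to 6. Il6 rose by 4.95 (SE 0.38, adjusted p = 2.26e-07), or 5.33 (SE 0.80) within replicates 1 and 2 alone and 4.83 (SE 0.33) within replicates 3 to 6 alone. The ratio of its counts was 44.9 in replicates 1 and 2 (95% exact interval 12.2 to 374) and 29.0 in replicates 3 to 6 (13.2 to 79.6), intervals that cover counting error only.

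Il11 encodes IL-11, whose receptor is abundant on fibroblasts, and lies on chromosome 7 (4772373 to 4782907, minus strand). Il11 had 2.81 and 2.26 CPM in MI 1 and 2, against 0.00761 and 0 CPM in sham 1 and 2, which rounds to 0 counts in both. Il11 had 1.22, 1.62, 1.3 and 1.02 CPM in MI 3 to 6, against 0, 0.145, 0.611 and 0.104 CPM in sham 3 to 6. The groups did not overlap in either set, although sham 5 stood above the other sham libraries. Against the limit of 3 counts over the sham group, Il11 was at least 22.4-fold higher in MI 1 and 2, and in replicates 3 to 6 its count ratio was 6.02 (95% exact interval 2.85 to 15.7). Its log2 fold change over 12 libraries was 3.74 (SE 0.63, adjusted p = 0.000164), and without sham 5 it was 5.26.

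The sequence just before the transcription start is shown for Il6, Il11 and Il1rn, the IL-1 antagonist, because these were among the members with the largest changes and each held a match to AP-1 (TGANTCA). Sequences are from RefSeq, build GRCm38.p6, 250 bases 5′ to 3′ up to the base before the start, with motif matches in capitals. A promoter entry was found for 55 of the 71 genes. The motifs searched, on both strands, were AP-1, NF-kB (GGGNN followed directly by TTTCC), STAT (TTCNNNGAA) and the TATA box (TATAAA), and no match shown overlaps another.
Il6, chr5:30012864-30013113, plus strand: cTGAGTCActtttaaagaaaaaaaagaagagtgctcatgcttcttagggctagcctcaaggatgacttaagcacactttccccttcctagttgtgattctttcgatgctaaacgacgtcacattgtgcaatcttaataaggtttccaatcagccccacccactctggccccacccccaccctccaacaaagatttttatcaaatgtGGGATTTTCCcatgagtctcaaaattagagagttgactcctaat
Il11, chr7:4778142-4778391, minus strand: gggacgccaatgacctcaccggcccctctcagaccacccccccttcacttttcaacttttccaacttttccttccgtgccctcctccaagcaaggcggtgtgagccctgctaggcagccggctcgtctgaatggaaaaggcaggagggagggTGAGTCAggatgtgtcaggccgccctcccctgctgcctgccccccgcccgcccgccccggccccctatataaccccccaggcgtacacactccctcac
Il1rn, chr2:24336610-24336859, plus strand: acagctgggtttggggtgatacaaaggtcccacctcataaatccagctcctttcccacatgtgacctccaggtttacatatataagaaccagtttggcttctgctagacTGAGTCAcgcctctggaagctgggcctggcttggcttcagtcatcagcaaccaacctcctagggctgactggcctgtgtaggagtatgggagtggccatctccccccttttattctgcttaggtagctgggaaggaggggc
In Il6 the AP-1 match lay 249 to 243 bases and the NF-kB match 44 to 35 bases before the start, in Il11 the AP-1 match lay 98 to 92 bases before it, and in Il1rn 141 to 135 bases before it. A different start of Il1rn had an NF-kB match 51 to 42 bases before it, and 1 more start of Il1rn and 1 of Il11 held no AP-1, NF-kB or STAT match. Other members that changed were examined but are not shown. Il7r (log2 fold change 5.10) held a STAT match and no AP-1 match, and Il33 and Il1b held no AP-1, NF-kB or STAT match. The genes shown were picked in part for AP-1, so they do not stand for all members with large changes. Among all 32851 promoter windows of this length, 6.7% held the AP-1 motif, 1.4% the NF-kB motif, 7.0% the STAT motif and 12.4% the TATA motif. Counted by gene, these were 7.8%, 1.7%, 8.1% and 14.3% of 27025 genes. Of the 21 members that rose and had an entry, 4 held AP-1 (Il6, Il11, Il1rn and Il22ra1), 3 NF-kB (Il6, Il1rn and Il17rc), 3 STAT (Il7r, Il18r1 and Il1f9) and 4 TATA (Il1b, Il18, Il33 and Il1rl2). Among all 55 members with an entry, 11 held AP-1, 5 NF-kB, 7 STAT and 9 TATA. These matches are descriptions of letters and not measured binding.

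The IL-1 family ligands that rose were Il1b, Il33, Il18 and Il1f9. Il1b encodes IL-1 beta, which is made as an inactive precursor and cut by caspase-1. Il1b had 3.37 and 20.4 CPM in MI 1 and 2, against 0.304 and 0.741 CPM in sham 1 and 2. Il1b had 5.87, 6.27, 6.2 and 6.06 CPM in MI 3 to 6, against 2.22, 2.11, 2.27 and 1.93 CPM in sham 3 to 6. Groups were apart in both sets, and MI 2 stood far above MI 1. Il1b rose by 2.39 (SE 0.55, adjusted p = 0.00172), or 4.47 (SE 1.05) within replicates 1 and 2 alone and 1.56 (SE 0.15) within replicates 3 to 6 alone. Its call was lost with replicates 3 to 6 counted once when a sham library of the first set was left out (adjusted p = 0.122 without sham replicate 1 and 0.128 without sham replicate 2), and without MI 2 its 12-library fold change was 1.79. Il1a, the ligand IL-1 alpha, which is active without cutting, had a lowest, median and highest level of 0.424, 0.668 and 3.01 CPM in MI libraries, against 0.148, 0.277 and 0.724 CPM in sham libraries, with overlap between the groups. It was not tested in both, and its counts were 80 in MI 1 and 2 against 6 in sham 1 and 2 (ratio 8.37, 95% exact interval 3.68 to 23.5) and 39 in MI 3 to 6 against 14 in sham 3 to 6 (ratio 1.39, 0.748 to 2.81).

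Il33, the alarmin IL-33, lies on chromosome 19 (29925113 to 29960718, plus strand) and had the highest CPM of any ligand in MI libraries. Il33 had 86.1 and 104 CPM in MI 1 and 2, against 8.15 and 7.26 CPM in sham 1 and 2. Il33 had 48.7, 51.8, 47.7 and 52.2 CPM in MI 3 to 6, against 17.7, 18, 19 and 17 CPM in sham 3 to 6. The sets did not overlap in MI, and within each set the groups were far apart. Il33 rose by 2.17 (SE 0.31, adjusted p = 4.68e-05), or 3.61 (SE 0.16) within replicates 1 and 2 alone and 1.53 (SE 0.06) within replicates 3 to 6 alone, and its effect also differed between sets. Il18 encodes IL-18, another caspase-1 substrate and an inducer of interferon gamma. Il18 had 4.91 and 7.06 CPM in MI 1 and 2, against 0.837 and 0.667 CPM in sham 1 and 2. Il18 had 4.6, 4.61, 5.05 and 4.06 CPM in MI 3 to 6, against 1.98, 1.74, 2.27 and 1.93 CPM in sham 3 to 6. Groups did not overlap in either set. Il18 rose by 1.76 (SE 0.28, adjusted p = 9.76e-05), or 2.97 (SE 0.37) within replicates 1 and 2 alone and 1.25 (SE 0.17) within replicates 3 to 6 alone, a call lost with replicates 3 to 6 counted once in 1 case (adjusted p = 0.0522 without sham replicate 1). Il1f9 encodes IL-36 gamma. Il1f9 had 11.1 and 6.45 CPM in MI 1 and 2, against 0.729 and 1.07 CPM in sham 1 and 2. Il1f9 had 11, 10.8, 11.2 and 11.4 CPM in MI 3 to 6, against 8.17, 7.63, 8.98 and 10.4 CPM in sham 3 to 6. Here the sham level differed between sets by far more than the MI level, and over 12 libraries the groups overlapped. Il1f9 rose by 1.08 (SE 0.40, adjusted p = 0.026), or 3.26 (SE 0.41) within replicates 1 and 2 alone and 0.39 (SE 0.10) within replicates 3 to 6 alone, and its call was lost without any 1 of the 4 libraries of the first set (adjusted p in the 3 against 3 test of 0.0721 to 0.169).

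Among the other ligands, Il34, a ligand of the macrophage receptor Csf1r, had 17.3 ± 1.03 CPM in MI and 8.54 ± 1.6 CPM in sham in replicates 1 and 2 (SD, n = 2 each) and 6.14 ± 0.93 CPM in MI and 5.28 ± 0.883 CPM in sham in replicates 3 to 6 (SD, n = 4 each), where the groups overlapped. It rose by 0.52 (SE 0.17, adjusted p = 0.0144), or 0.99 (SE 0.20) within replicates 1 and 2 alone and 0.27 (SE 0.14) within replicates 3 to 6 alone. The Il34 call was lost without each library of replicates 1 and 2 (3 against 3 adjusted p of 0.0911 to 0.158) and without sham 3, sham 5 or MI 5 (0.05 to 0.0516). Il15, which sustains NK and memory T cells, was not called. Il15 had 15.4 and 12.7 CPM in MI 1 and 2, against 7.76 and 6.82 CPM in sham 1 and 2. Il15 had 16.3, 15.3, 13.6 and 14.7 CPM in MI 3 to 6, against 16.5, 16.5, 16.5 and 14.6 CPM in sham 3 to 6. MI libraries of the first set lay above their sham libraries, while in replicates 3 to 6 the groups overlapped, and the fold change was 0.24 (SE 0.16, adjusted p = 0.193), or 0.93 (SE 0.20) within replicates 1 and 2 alone and -0.05 (SE 0.08) within replicates 3 to 6 alone. Il16, a chemoattractant that binds CD4, had 20 ± 5.1 CPM in MI and 17.1 ± 3.98 CPM in sham in replicates 1 and 2 (SD, n = 2 each) and 18.5 ± 1.41 CPM in MI and 15 ± 1.09 CPM in sham in replicates 3 to 6 (SD, n = 4 each). Il16 was not called, with a fold change of 0.28 (SE 0.11, adjusted p = 0.0336), or 0.20 (SE 0.25) within replicates 1 and 2 alone and 0.36 (SE 0.08) within replicates 3 to 6 alone, and antisense exons of other genes cover 17.4% of its exons, so that reads could be told apart only if counting used strand. Il7, the lymphocyte survival factor, had a lowest, median and highest level of 0.426, 0.918 and 1.09 CPM in MI libraries, against 0.296, 0.783 and 2.03 CPM in sham libraries, overlapped between the groups and was not called (log2 fold change -0.19). Il17d, of the IL-17 family, had 7.49 ± 0.779 CPM in MI and 10.2 ± 1.36 CPM in sham in replicates 1 and 2 (SD, n = 2 each) and 3.33 ± 0.429 CPM in MI and 5.81 ± 0.212 CPM in sham in replicates 3 to 6 (SD, n = 4 each). Its MI libraries lay below its sham libraries within each set, but the 3 against 3 test missed the threshold (adjusted p = 0.0516, log2 fold change -0.67).

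**Figure D2:**
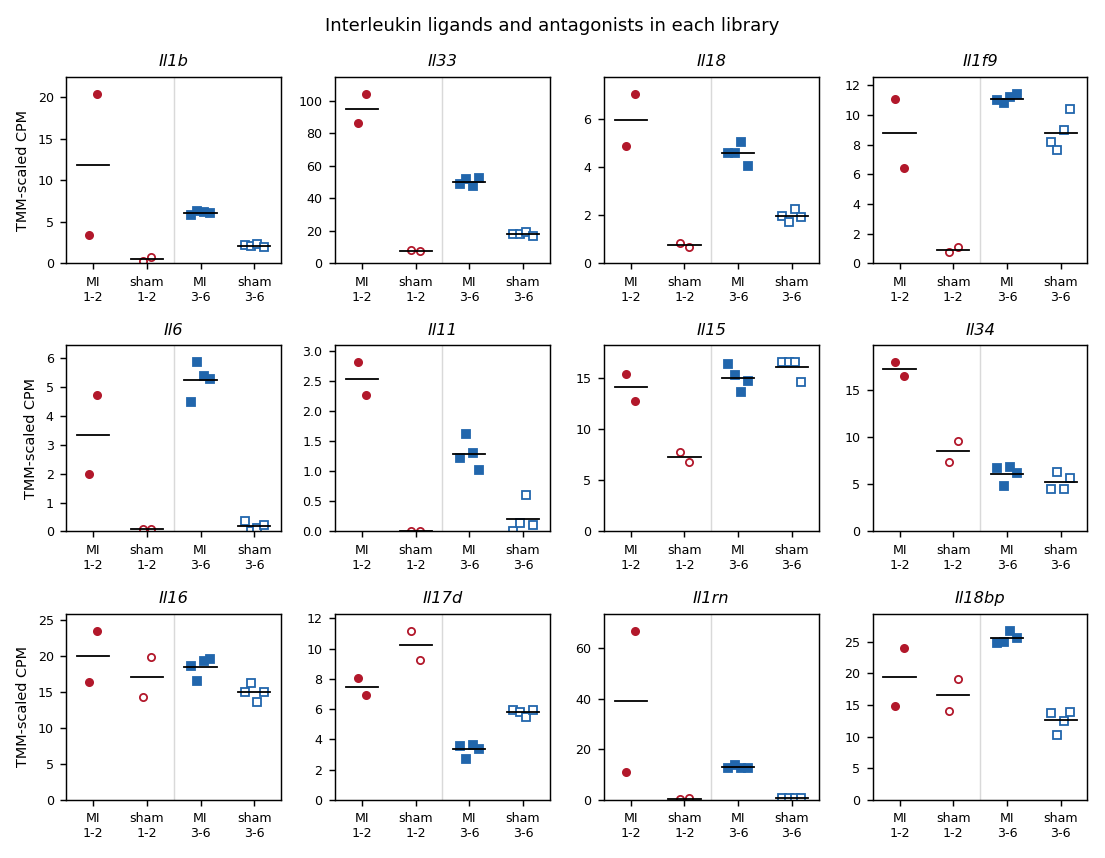
Level in each library (y axis, TMM-scaled CPM, from 0) of 10 interleukin ligands and of the antagonists Il1rn and Il18bp, with MI filled and sham open, red circles for replicates 1 and 2, blue squares for replicates 3 to 6 and a line at each mean. Il6, Il11 and Il1rn are near 0 in sham, and MI 2 is the highest library for Il1b and Il1rn.

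Several ligands known from other inflamed tissues were close to absent. Il10, the main anti-inflammatory interleukin, was counted 12 times in MI 1 and 2 and 0 times in sham 1 and 2, which is at least 2.51-fold higher, and 24 times in MI 3 to 6 against 2 times in sham 3 to 6 (ratio 6.07, 95% exact interval 1.51 to 53.0). Il12b, the shared p40 chain of IL-12 and IL-23, was counted 45 times in MI 1 and 2 against 2 times in sham 1 and 2 (ratio 14.1, 3.69 to 120.0) and 43 times in MI 3 to 6 against 0 in sham 3 to 6, at least 7.25-fold higher. Neither was tested in both (Il12b in the 3 against 3 test alone, log2 fold change 4.42, adjusted p = 0.0138), and only MI 2, with 1.53 CPM of Il12b, was above 1 CPM for either. The p35 chain of IL-12, Il12a, ran the other way in replicates 3 to 6, with 10 counts in MI against 20 in sham (ratio 0.253, 0.106 to 0.566), and had 5 in MI 1 and 2 against 6 in sham 1 and 2 (ratio 0.523, 0.126 to 2.06). Il27, the p28 chain of IL-27, had 23 counts in MI 1 and 2 against 3 in sham 1 and 2 (ratio 4.78, 1.45 to 25) and 20 in MI 3 to 6 against 6 in sham 3 to 6 (ratio 1.62, 0.653 to 5.13). Il23a, the p19 chain of IL-23, had 1 count in MI 1 and 2 against 5 in sham 1 and 2 (ratio 0.126, 0.00266 to 1.12) and 10 in MI 3 to 6 against 10 in sham 3 to 6 (ratio 0.506, 0.189 to 1.35).

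Ligands of type 2 immunity were at the limit of detection. Il4 was counted once in MI 1 and 2 and once in MI 3 to 6, and 0 times in all 6 sham libraries. Il5 had 1 count in MI 1 and 2 and 3 counts in MI 3 to 6, against 0 in sham 1 and 2 and 3 in sham 3 to 6. Il25 (IL-17E) had 8 counts in MI 3 to 6 against 2 in sham 3 to 6, and 0 in MI 1 and 2 against 2 in sham 1 and 2. The remaining ligands were as scarce. Il17b, Il17f, Il19, Il21, Il22 and Il24 each had 4 or fewer counts in any group of a set, and Il17c had 14 in MI 1 and 2 against 3 in sham 1 and 2 (ratio 2.93, 0.818 to 15.9). At this depth a change in these ligands was not detectable. Il2, Il3, Il9, Il13, Il17a, Il20, Il31 and the other IL-36 genes were not among the 18050 genes listed, so their levels are unknown.

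Of the genes that hold interleukin signals back, the IL-1 receptor antagonist Il1rn had the largest 12-library fold change of all tested members. It lies on chromosome 2 (24336860 to 24351491, plus strand). Il1rn had 11.1 and 66.9 CPM in MI 1 and 2, against 0.229 and 0.67 CPM in sham 1 and 2. Il1rn had 12.5, 13.8, 12.5 and 12.7 CPM in MI 3 to 6, against 0.598, 0.622, 0.774 and 0.613 CPM in sham 3 to 6. The lowest MI library was above 10 CPM and every sham library was below 1 CPM. Il1rn rose by 5.25 (SE 0.55, adjusted p = 3.08e-06), or 6.40 (SE 1.17) within replicates 1 and 2 alone and 4.37 (SE 0.17) within replicates 3 to 6 alone, and by 4.44 over 12 libraries without MI 2. Relative to the summed agonists Il1a and Il1b, in TPM (a share of transcripts that corrects for gene length), Il1rn stood at 1.57 and 1.61 in MI 1 and 2, against 0.246 and 0.44 in sham 1 and 2. The same ratio was 1.11, 1.14, 1.02 and 1.1 in MI 3 to 6, against 0.130, 0.149, 0.169 and 0.141 in sham 3 to 6. Antagonist transcripts were thus above the level of agonist transcripts in all 6 MI libraries and below it in all 6 sham libraries.

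Il18bp, the secreted binding protein of IL-18, differed less. Il18bp had 14.8 and 24 CPM in MI 1 and 2, against 14 and 19.2 CPM in sham 1 and 2. Il18bp had 24.9, 25, 26.8 and 25.6 CPM in MI 3 to 6, against 13.7, 10.3, 12.5 and 13.9 CPM in sham 3 to 6. Groups overlapped in replicates 1 and 2 and were apart in replicates 3 to 6, and Il18bp was not called (3 against 3 adjusted p = 0.182), with a fold change of 0.74 (SE 0.17, adjusted p = 0.00139), or 0.21 (SE 0.28) within replicates 1 and 2 alone and 1.07 (SE 0.08) within replicates 3 to 6 alone. The ratio of Il18bp to Il18 in TPM was 2.48 and 2.84 in MI 1 and 2, against 15.7 and 23.9 in sham 1 and 2. In replicates 3 to 6 it was 3.87, 3.81, 3.95 and 4.34 in MI, against 4.41, 3.80, 3.73 and 5.39 in sham. Transcripts of Il18bp were therefore above those of Il18 in every library, with a lower ratio after MI in the first set and overlapping ratios in the other.

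Il1r2, the decoy receptor of IL-1, was counted 51 times in MI 1 and 2 and 0 times in sham 1 and 2, at least 10.7-fold higher. In replicates 3 to 6 it was counted 74 times in MI against 5 times in sham (ratio 7.48, 95% exact interval 3.07 to 23.7), and it was tested in 1 of the 2 tests only (3 against 3, adjusted p = 0.0182). Il13ra2, a decoy receptor of IL-13, had 8 counts in MI 1 and 2 against 2 in sham 1 and 2 (ratio 2.51, 0.501 to 24.3) and 19 in MI 3 to 6 against 3 in sham 3 to 6 (ratio 3.19, 0.943 to 16.9). Il22ra2, the soluble IL-22 binding protein, had 1 and 6 counts in the MI groups against 0 and 3 in the sham groups.

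**Figure D3:**
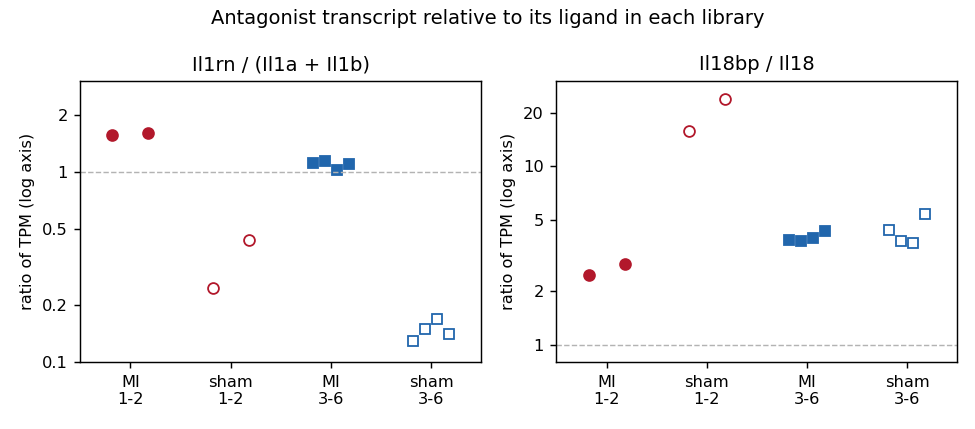
Ratio of antagonist to ligand transcripts in each library (y axis, ratio of TPM, log axis), for Il1rn over Il1a plus Il1b on the left and Il18bp over Il18 on the right, with MI filled and sham open and the dashed line at a ratio of 1. All 6 MI libraries lie above 1 on the left, between 1.02 and 1.61, and all sham libraries lie at 0.44 or lower.

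The tested receptors of the IL-1 family rose, except the IL-33 receptor. Il1r1, the signalling receptor of IL-1, lies on chromosome 1 (40222480 to 40316201, plus strand). Il1r1 had 91.2 and 108 CPM in MI 1 and 2, against 12.9 and 10.7 CPM in sham 1 and 2. Il1r1 had 71.1, 69.8, 70.7 and 66.2 CPM in MI 3 to 6, against 27.6, 33.4, 31.9 and 29.9 CPM in sham 3 to 6. The groups did not overlap, and sham 1 and 2 lay below sham 3 to 6. Il1r1 rose by 1.78 (SE 0.28, adjusted p = 8.84e-05), or 3.06 (SE 0.16) within replicates 1 and 2 alone and 1.23 (SE 0.05) within replicates 3 to 6 alone. Il1rap encodes the accessory chain shared by the IL-1, IL-33 and IL-36 receptors. Il1rap had 19.7 and 22.6 CPM in MI 1 and 2, against 6.39 and 5.04 CPM in sham 1 and 2. Il1rap had 18.6, 19.8, 20.7 and 19.9 CPM in MI 3 to 6, against 9.95, 7.46, 8.01 and 8.45 CPM in sham 3 to 6. MI libraries lay together at about the same level in both sets. Il1rap rose by 1.45 (SE 0.13, adjusted p = 6.76e-07), or 1.87 (SE 0.20) within replicates 1 and 2 alone and 1.27 (SE 0.09) within replicates 3 to 6 alone. Il1rl2, the IL-36 receptor, showed the same separation of groups. Il1rl2 had 20.2 and 22.6 CPM in MI 1 and 2, against 4.95 and 4.52 CPM in sham 1 and 2. Il1rl2 had 13.2, 14.8, 15.6 and 13.9 CPM in MI 3 to 6, against 7.14, 8.7, 6.33 and 6.28 CPM in sham 3 to 6. Its fold change was 1.41 (SE 0.19, adjusted p = 2.36e-05), or 2.16 (SE 0.18) within replicates 1 and 2 alone and 1.06 (SE 0.10) within replicates 3 to 6 alone.

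Il1rl1, the IL-33 receptor ST2, was not called. Il1rl1 had 1.31 and 2.3 CPM in MI 1 and 2, against 1.44 and 1.34 CPM in sham 1 and 2. Il1rl1 had 2.78, 1.96, 2.78 and 1.87 CPM in MI 3 to 6, against 2.82, 3.73, 3.05 and 2.55 CPM in sham 3 to 6. The groups overlapped in both sets, and the fold change was -0.13 (SE 0.21, adjusted p = 0.599), or 0.36 (SE 0.43) within replicates 1 and 2 alone and -0.32 (SE 0.20) within replicates 3 to 6 alone. The table counts whole genes, so the soluble and membrane forms of ST2 are not separated. Both chains of the IL-18 receptor rose. Il18r1 had 2.13 and 4.37 CPM in MI 1 and 2, against 0.457 and 0.445 CPM in sham 1 and 2. Il18r1 had 3.45, 3.63, 3.7 and 3.97 CPM in MI 3 to 6, against 1.95, 1.12, 1.22 and 0.845 CPM in sham 3 to 6. No overlap was seen in either set, and the fold change of Il18r1, the ligand-binding chain, was 1.91 (SE 0.29, adjusted p = 7.41e-05), or 2.82 (SE 0.54) within replicates 1 and 2 alone and 1.56 (SE 0.22) within replicates 3 to 6 alone. Il18rap had 1.88 and 3.65 CPM in MI 1 and 2, against 0.381 and 0.222 CPM in sham 1 and 2. Il18rap had 2.66, 3.2, 2.98 and 3.03 CPM in MI 3 to 6, against 1.4, 1.87, 0.717 and 1.09 CPM in sham 3 to 6. MI libraries were again above sham libraries. Il18rap, the accessory chain, rose by 1.76 (SE 0.35, adjusted p = 0.000564), or 3.15 (SE 0.58) within replicates 1 and 2 alone and 1.27 (SE 0.23) within replicates 3 to 6 alone. With replicates 3 to 6 counted once, the call of Il18r1 was lost without sham 1 (adjusted p = 0.0533) or sham 2 (0.0503), and that of Il18rap without sham 1 (0.0818) or sham 2 (0.0697).

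Among the tested gp130 members the largest changes were in the ligands Il6 and Il11, which had few or no sham counts, and not in the receptors. The ligand Il27 was not tested in both, and partners without the Il prefix are counted apart. Il6st, the gp130 chain itself, had the highest CPM of all members in both MI sets. Il6st had 323 and 321 CPM in MI 1 and 2, against 287 and 271 CPM in sham 1 and 2. Il6st had 218, 210.0, 217 and 209 CPM in MI 3 to 6, against 168, 175, 167 and 170.0 CPM in sham 3 to 6. MI libraries were above sham libraries within each set but by little, and Il6st was not called (3 against 3 adjusted p = 0.224), with a fold change of 0.29 (SE 0.05, adjusted p = 0.000296), or 0.19 (SE 0.12) within replicates 1 and 2 alone and 0.38 (SE 0.03) within replicates 3 to 6 alone. Il6ra encodes the IL-6 binding chain. Il6ra had 12 and 17.4 CPM in MI 1 and 2, against 5.63 and 3.56 CPM in sham 1 and 2. Il6ra had 6.27, 6.29, 5.22 and 5.39 CPM in MI 3 to 6, against 4.92, 5.1, 4.9 and 4.53 CPM in sham 3 to 6. The separation was wide in the first set and narrow in the other. Il6ra rose by 0.77 (SE 0.25, adjusted p = 0.013), or 1.66 (SE 0.31) within replicates 1 and 2 alone and 0.30 (SE 0.13) within replicates 3 to 6 alone, and the call was lost without any 1 library of replicates 1 and 2 (3 against 3 adjusted p of 0.0847 to 0.149). Il27ra, the IL-27 receptor, had 8.47 ± 0.273 CPM in MI and 5.22 ± 0.167 CPM in sham in replicates 1 and 2 (SD, n = 2 each) and 8.01 ± 0.727 CPM in MI and 5.33 ± 0.825 CPM in sham in replicates 3 to 6 (SD, n = 4 each). Il27ra rose by 0.63 (SE 0.10, adjusted p = 0.000151), or 0.68 (SE 0.21) within replicates 1 and 2 alone and 0.64 (SE 0.13) within replicates 3 to 6 alone, and its call was lost in the same 4 cases (0.0696 to 0.112).

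Mice carry near-identical copies of the IL-11 receptor alpha chain, between which the authors' counting could split reads, so the level of each copy is uncertain. Il11ra1 had 169 and 137 CPM in MI 1 and 2, against 79.5 and 80.5 CPM in sham 1 and 2. Il11ra1 had 106, 101, 104 and 98.5 CPM in MI 3 to 6, against 108, 110.0, 98.9 and 95 CPM in sham 3 to 6. Il11ra1 was above sham in MI 1 and 2 and overlapped sham in replicates 3 to 6, and was not called, with a fold change of 0.31 (SE 0.14, adjusted p = 0.0708), or 0.92 (SE 0.14) within replicates 1 and 2 alone and 0.04 (SE 0.04) within replicates 3 to 6 alone. Il11ra2 had 40.1 and 32.6 CPM in MI 1 and 2, against 16.2 and 15.7 CPM in sham 1 and 2. Il11ra2 had 8.42, 10.3, 10 and 10.4 CPM in MI 3 to 6, against 4.86, 4.39, 4.62 and 4.82 CPM in sham 3 to 6. Il11ra2 separated the groups within each set and rose by 1.11 (SE 0.09, adjusted p = 2.02e-07), or 1.18 (SE 0.15) within replicates 1 and 2 alone and 1.11 (SE 0.12) within replicates 3 to 6 alone. Summed over both copies, the log2 fold change was 0.37 with all libraries, 0.97 within the first set and 0.11 within the other, and the sum was not called (3 against 3 adjusted p = 0.0533). Il11ra1 made up 80.7% and 80.5% of the pair in MI 1 and 2, against 82.8% and 83.3% in sham 1 and 2, in TPM. In replicates 3 to 6 it made up 90.3% to 92.5% in MI, against 95.1% to 96.1% in sham.

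**Figure D4:**
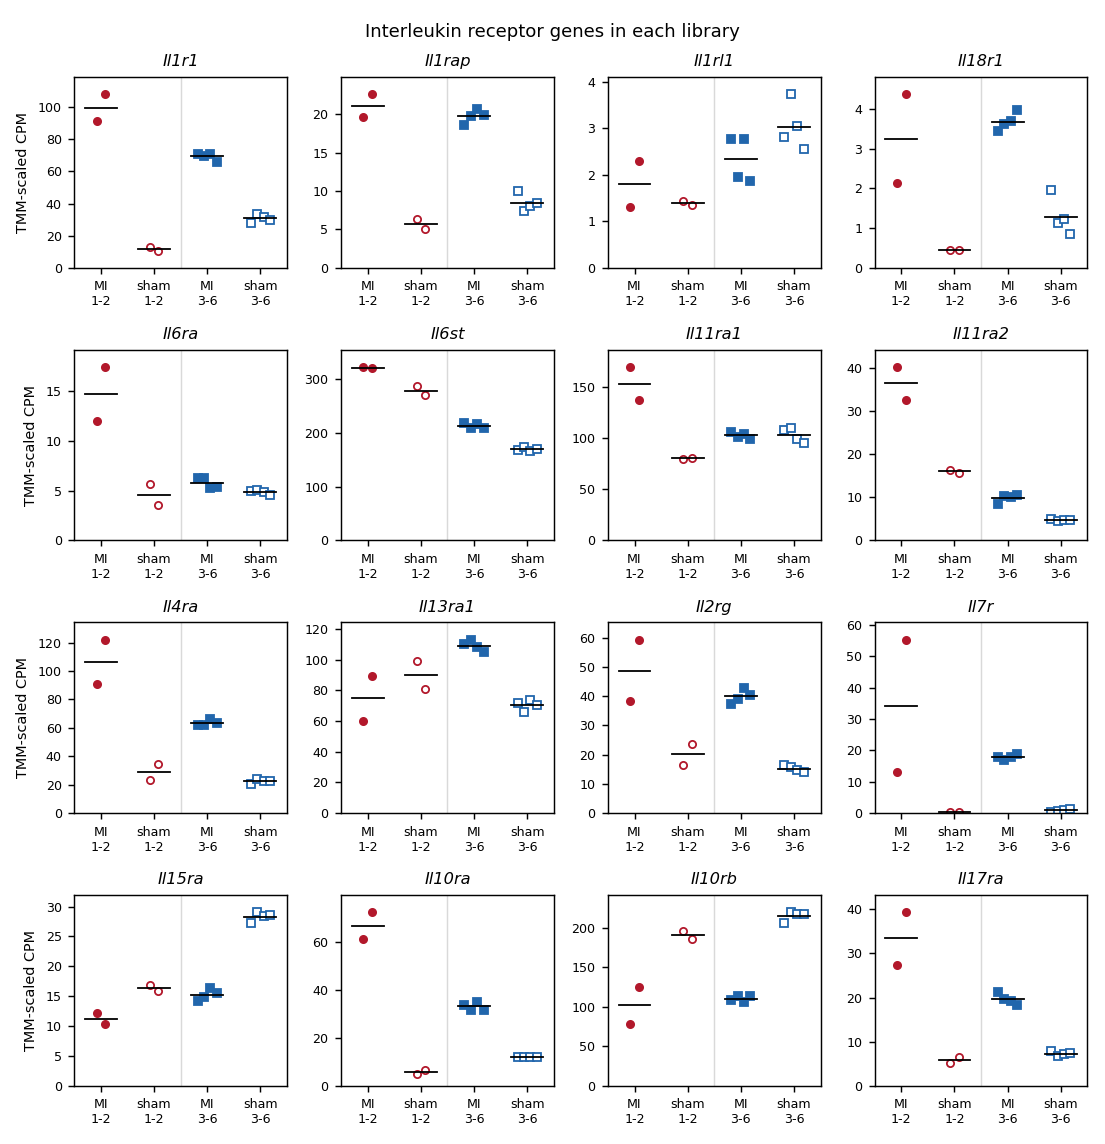
Level in each library (y axis, TMM-scaled CPM, from 0) of 16 interleukin receptor genes, with MI filled and sham open, red circles for replicates 1 and 2, blue squares for replicates 3 to 6 and a line at each mean. Il7r is near 0 in sham, Il10rb and Il15ra are lower in MI within both sets, and Il1rl1 overlaps between groups.

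Among receptors of the gamma chain group, the IL-7 receptor Il7r changed most. It lies on chromosome 15 (9506159 to 9529941, minus strand). Il7r had 13.2 and 55.3 CPM in MI 1 and 2, against 0.315 and 0.284 CPM in sham 1 and 2. Il7r had 17.9, 17, 17.8 and 18.7 CPM in MI 3 to 6, against 0.468, 0.767, 1.08 and 1.45 CPM in sham 3 to 6. Every MI library was above 10 CPM and every sham library below 2 CPM. Il7r rose by 5.10 (SE 0.49, adjusted p = 1.5e-06), or 6.78 (SE 1.00) within replicates 1 and 2 alone and 4.29 (SE 0.16) within replicates 3 to 6 alone. The common gamma chain Il2rg rose as well. Il2rg had 38.2 and 59.3 CPM in MI 1 and 2, against 16.5 and 23.6 CPM in sham 1 and 2. Il2rg had 37.4, 39.2, 42.8 and 40.4 CPM in MI 3 to 6, against 16.5, 15.7, 14.8 and 14 CPM in sham 3 to 6. Groups did not overlap, and the fold change was 1.35 (SE 0.12, adjusted p = 5.62e-07), or 1.26 (SE 0.27) within replicates 1 and 2 alone and 1.44 (SE 0.07) within replicates 3 to 6 alone; exons of Gm20489 on the same strand cover 30.5% of the Il2rg exons, so its level is uncertain. Il2rb, the beta chain shared by the IL-2 and IL-15 receptors, followed. Il2rb had 3.27 and 9.25 CPM in MI 1 and 2, against 0.761 and 2.3 CPM in sham 1 and 2. Il2rb had 4.66, 4.87, 3.95 and 5.15 CPM in MI 3 to 6, against 0.819, 0.995, 0.717 and 0.857 CPM in sham 3 to 6. MI libraries stayed above sham libraries, narrowly in the first set. Il2rb rose by 2.27 (SE 0.31, adjusted p = 3.23e-05), or 2.01 (SE 0.68) within replicates 1 and 2 alone and 2.50 (SE 0.22) within replicates 3 to 6 alone, a call lost without sham 1 (3 against 3 adjusted p = 0.0713) or MI 2 (0.0841). Il2ra, the alpha chain that gives high affinity for IL-2, had a lowest, median and highest level of 2.1, 2.91 and 3.36 CPM in MI libraries, against 2.9, 3.48 and 4.25 CPM in sham libraries, overlapped between the groups and was not called (log2 fold change -0.26).

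Il15ra, which presents IL-15 to neighbouring cells, fell. Il15ra had 12.1 and 10.3 CPM in MI 1 and 2, against 16.8 and 15.8 CPM in sham 1 and 2. Il15ra had 14.2, 14.8, 16.4 and 15.6 CPM in MI 3 to 6, against 27.2, 29, 28.4 and 28.5 CPM in sham 3 to 6. Within each set all MI libraries were below all sham libraries, although MI 3 to 6 overlapped sham 1 and 2. Il15ra fell by 0.78 on the log2 scale over 12 libraries (SE 0.08, adjusted p = 1.99e-06), with fold changes of -0.56 within the first set and -0.84 within the other, and the call was lost without sham 1 (3 against 3 adjusted p = 0.0503) or when scaled by library size alone (fold change -0.37). Il4ra, the chain shared by the IL-4 and IL-13 receptors, rose. Il4ra had 90.9 and 122 CPM in MI 1 and 2, against 23.2 and 34.5 CPM in sham 1 and 2. Il4ra had 62.1, 61.7, 66.5 and 63.2 CPM in MI 3 to 6, against 20.4, 24.2, 22.7 and 22.3 CPM in sham 3 to 6. No MI library overlapped a sham library, and the fold change was 1.63 (SE 0.11, adjusted p = 9.99e-08), or 1.87 (SE 0.24) within replicates 1 and 2 alone and 1.55 (SE 0.05) within replicates 3 to 6 alone. Il13ra1, its partner in the IL-13 receptor, was not called. Il13ra1 had 60.2 and 89.4 CPM in MI 1 and 2, against 99 and 80.8 CPM in sham 1 and 2. Il13ra1 had 110.0, 113, 108 and 105 CPM in MI 3 to 6, against 72.1, 66.1, 73.6 and 70.4 CPM in sham 3 to 6. MI lay above sham in replicates 3 to 6 and overlapped it in replicates 1 and 2, and the fold changes had opposite signs in the 2 sets, at 0.33 (SE 0.15, adjusted p = 0.0679), or -0.28 (SE 0.21) within replicates 1 and 2 alone and 0.67 (SE 0.04) within replicates 3 to 6 alone.

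Il21r, the IL-21 receptor, and Il3ra, the IL-3 binding chain, rose. Il21r had 13.9 and 17.4 CPM in MI 1 and 2, against 1.75 and 1.91 CPM in sham 1 and 2. Il21r had 7.11, 7.77, 6.88 and 6.49 CPM in MI 3 to 6, against 2.59, 2.28, 2.63 and 1.57 CPM in sham 3 to 6. Its groups did not overlap, and the fold change was 2.17 (SE 0.24, adjusted p = 5.24e-06), or 3.06 (SE 0.24) within replicates 1 and 2 alone and 1.69 (SE 0.16) within replicates 3 to 6 alone. Il3ra had 40.9 and 42.4 CPM in MI 1 and 2, against 7.61 and 9.86 CPM in sham 1 and 2. Il3ra had 10.8, 9.9, 9.31 and 10.7 CPM in MI 3 to 6, against 5.38, 7.34, 5.38 and 4.95 CPM in sham 3 to 6. Il3ra libraries of MI 1 and 2 stood well above MI 3 to 6, and the fold change was 1.37 (SE 0.23, adjusted p = 0.000169), or 2.23 (SE 0.17) within replicates 1 and 2 alone and 0.87 (SE 0.12) within replicates 3 to 6 alone. The receptors Il5ra and Il9r were not tested. Il5ra had 18 counts in MI 1 and 2 against 5 in sham 1 and 2 (ratio 2.05, 95% exact interval 0.809 to 7.79) and 6 in MI 3 to 6 against 3 in sham 3 to 6 (ratio 1.18, 0.216 to 6.25). Il9r had 13 in MI 1 and 2 against 4 in sham 1 and 2 (ratio 2.19, 0.630 to 8.59) and 20 in MI 3 to 6 against 5 in sham 3 to 6 (ratio 2.05, 0.737 to 6.90).

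The chains of the IL-10 receptor moved in opposite directions. Il10ra, the ligand-binding chain, rose. Il10ra had 61.2 and 72.4 CPM in MI 1 and 2, against 4.72 and 6.52 CPM in sham 1 and 2. Il10ra had 33.9, 31.6, 35.2 and 31.8 CPM in MI 3 to 6, against 11.9, 11.8, 12.1 and 11.9 CPM in sham 3 to 6. MI libraries were all above sham libraries, by more in the first set, with a fold change of 2.15 (SE 0.31, adjusted p = 4.31e-05), or 3.55 (SE 0.20) within replicates 1 and 2 alone and 1.52 (SE 0.07) within replicates 3 to 6 alone. Il10rb, the chain shared with the receptors of IL-22 and of lambda interferons, fell. Il10rb had 78 and 125 CPM in MI 1 and 2, against 195 and 185 CPM in sham 1 and 2. Il10rb had 108, 113, 106 and 113 CPM in MI 3 to 6, against 206, 219, 217 and 217 CPM in sham 3 to 6. All 6 MI libraries were below all 6 sham libraries. Il10rb fell by 0.95 on the log2 scale (SE 0.09, adjusted p = 2e-06), with fold changes of -0.92 within the first set and -0.92 within the other. Exons of Gm21970 on the same strand cover 14.9% of its exons, and when scaled by library size alone its fold change was -0.53 and not called.

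Il22ra1 encodes the IL-22 binding chain. Il22ra1 had 3.03 and 3.65 CPM in MI 1 and 2, against 0.457 and 1.34 CPM in sham 1 and 2. Il22ra1 had 0.666, 0.924, 1.28 and 0.797 CPM in MI 3 to 6, against 0.402, 0.408, 0.239 and 0.121 CPM in sham 3 to 6. The groups were apart within each set and overlapped across sets. Il22ra1 rose by 1.81 (SE 0.31, adjusted p = 0.000178), and the call was lost without sham 1, MI 1 or MI 2 (3 against 3 adjusted p of 0.0535, 0.0549 and 0.0669). Il20rb, a chain of the IL-20 receptors, had a lowest, median and highest level of 1.17, 1.43 and 1.75 CPM in MI libraries, against 0.761, 2.36 and 4.6 CPM in sham libraries, overlapped between the groups and was not called, at 0.63 within the first set and -1.08 within the other. Il20ra was counted 5 and 7 times in the MI groups and 0 times in sham. The chains of the IL-12 receptor also parted. Il12rb1 had 6.38 and 9.73 CPM in MI 1 and 2, against 0.667 and 1.04 CPM in sham 1 and 2. Il12rb1 had 4.17, 3.82, 3.85 and 3.66 CPM in MI 3 to 6, against 1.36, 0.418, 0.392 and 0.969 CPM in sham 3 to 6. Il12rb1, shared by the IL-12 and IL-23 receptors, had no overlap between groups and rose by 2.68 (SE 0.29, adjusted p = 4.59e-06), or 3.20 (SE 0.38) within replicates 1 and 2 alone and 2.34 (SE 0.26) within replicates 3 to 6 alone. Il12rb2 had 2.66 and 2.59 CPM in MI 1 and 2, against 5.57 and 5.01 CPM in sham 1 and 2. Il12rb2 had 4.3, 4.53, 4.98 and 4.09 CPM in MI 3 to 6, against 6.08, 5.6, 5.41 and 5.36 CPM in sham 3 to 6. Il12rb2, the chain specific to IL-12, had its highest MI library only just below its lowest sham library. It fell by 0.55 on the log2 scale (SE 0.14, adjusted p = 0.00278), and the call was lost without any 1 library of replicates 1 and 2 (3 against 3 adjusted p of 0.110 to 0.157). In a limma test of log2(FPKM + 1) its sign turned (0.06), scaled by library size alone it was -0.14 and not called, and antisense exons of Serbp1 cover 40% of its exons.

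In the IL-17 family the receptors Il17ra and Il17rc, which together bind IL-17A and IL-17F, rose. Of their ligand genes, Il17f had at most 1 count in any group of a set, and Il17a was not among the 18050 genes listed. Il17ra had 27.5 and 39.3 CPM in MI 1 and 2, against 5.1 and 6.6 CPM in sham 1 and 2. Il17ra had 21.2, 19.7, 19.2 and 18.2 CPM in MI 3 to 6, against 7.79, 6.7, 7.11 and 7.49 CPM in sham 3 to 6. All MI libraries were above all sham libraries, and the fold change was 1.81 (SE 0.19, adjusted p = 2.52e-06), or 2.49 (SE 0.25) within replicates 1 and 2 alone and 1.47 (SE 0.09) within replicates 3 to 6 alone. Il17rc had 28.5 ± 5.78 CPM in MI and 17.7 ± 1.37 CPM in sham in replicates 1 and 2 (SD, n = 2 each) and 12.6 ± 0.96 CPM in MI and 7.9 ± 1.33 CPM in sham in replicates 3 to 6 (SD, n = 4 each). It rose by 0.67 (SE 0.11, adjusted p = 9.05e-05), or 0.67 (SE 0.18) within replicates 1 and 2 alone and 0.71 (SE 0.11) within replicates 3 to 6 alone. Its call was lost without sham 1 (3 against 3 adjusted p = 0.0786), sham 2 (0.0562) or MI 1 (0.0582). Il17rd, which modulates fibroblast growth factor and IL-17 signals, was not called (log2 fold change 0.02). Il17re, the IL-17C receptor, had 24 counts in MI 3 to 6 against 52 in sham 3 to 6 (ratio 0.233, 95% exact interval 0.138 to 0.385) and 6 in MI 1 and 2 against 15 in sham 1 and 2 (ratio 0.251, 0.0798 to 0.685). Il17rb, the IL-17E receptor, went the other way, with 33 counts in MI 3 to 6 against 6 in sham 3 to 6 (ratio 2.78, 1.15 to 8.12) and 11 in MI 1 and 2 against 3 in sham 1 and 2 (ratio 2.30, 0.608 to 12.9). Il23r, Il31ra and Il1rapl1 had 12 or fewer counts in every group of a set.

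Ligands and receptors were paired into 29 systems. In 8 of them a ligand gene and a receptor gene rose: IL-1, IL-18, IL-33 and IL-36, IL-6 and IL-11, IL-27 (through its Ebi3 chain) and IL-34. This count fell to 2 without sham 1 or without sham 2, to 4 without MI 1 or without MI 2, to 4 with a replicate block and to 3 without the set as covariate. In 19 further systems a receptor gene rose with no ligand gene called, but only in 3 of these (IL-7, IL-15 and IL-16) was a ligand gene tested in both tests. In the other 16, among them IL-2, IL-4, IL-10, IL-12, IL-17 and IL-21, no ligand could be called. Several systems share a chain such as Il2rg, Il1rap or Il17ra, so these counts are not independent. A system was counted when any of its receptor genes rose, beside 28.1% of all tested genes and 64.3% of tested members that rose. No matching count of systems over all genes was made. In IL-5, IL-9, IL-23, IL-31, IL-17B and E and IL-17C only a shared chain rose, and the specific chain was not tested in both. In IL-10, IL-12, IL-15 and IL-22 another chain fell. In the IL-33 system the risen receptor was the shared Il1rap and not the ligand-binding Il1rl1, and in the IL-11 system it was the minor copy Il11ra2, whose share of reads is uncertain. With both receptor copies summed, the IL-11 receptor was not called (log2 fold change 0.37, 3 against 3 adjusted p = 0.0533).

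Levels between genes were compared in TPM, which is not TMM-scaled, so here only genes within a group are set side by side. In MI 1 and 2 the ligand Il33 averaged 87.2 TPM and its receptor Il1rl1 0.9 TPM, and in MI 3 to 6 they averaged 39.5 and 1.11 TPM. Ligand transcripts thus far outnumbered those of the specific receptor. Il6 averaged 7.04 TPM in MI 1 and 2 and 9.41 TPM in MI 3 to 6, below the shared Il6st at 136 and 77.5 TPM. Against the IL-6 binding chain Il6ra, at 10.1 and 3.42 TPM, Il6 was lower in MI 1 and 2 and higher in MI 3 to 6. Il11 averaged 3.12 and 1.36 TPM, below Il11ra1 at 203 and 117 TPM. Il1b averaged 21 and 9.04 TPM in the MI sets, and its receptor Il1r1 48 and 29.4 TPM. For IL-18 the ligand exceeded its receptor, with Il18 at 10.9 and 9.52 TPM against Il18r1 at 1.98 and 1.89 TPM in the same MI sets. The gene with the highest TPM of all members was Il11ra1 in MI 1 and 2 (203) and Il10rb in MI 3 to 6 (119), sham 1 and 2 (150.0) and sham 3 to 6 (148).

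**Figure D5:**
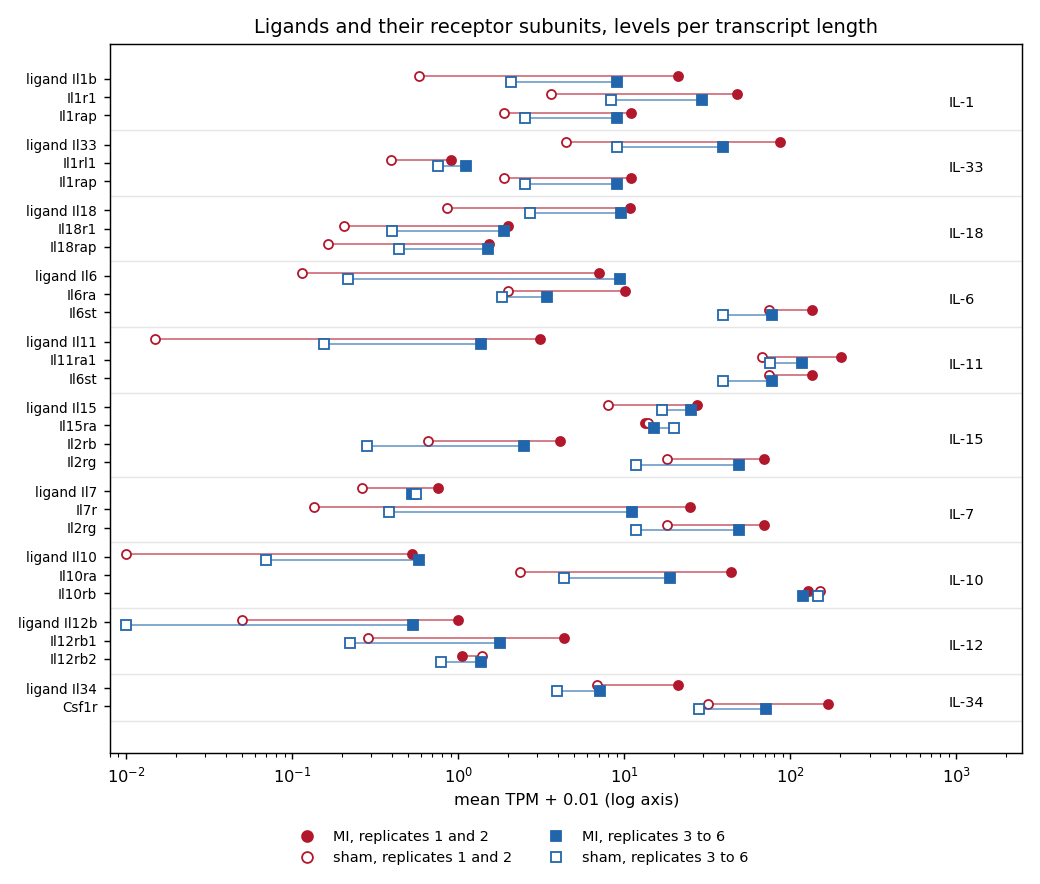
Mean level per transcript length (x axis, TPM plus 0.01, log axis) of 10 ligands and the receptor chains they bind, with MI filled and sham open, red circles for replicates 1 and 2 and blue squares for replicates 3 to 6. TPM is not TMM-scaled, so positions compare genes within a group; Il33 lies well to the right of Il1rl1, and Il6 and Il11 lie to the left of Il6st and Il11ra1.

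Partners of the family that carry other names were counted from lists, beside a share of 28.1% that rose and 29.8% that fell among all genes tested. Of 12 tested gp130 cytokines and receptors, 7 rose and 2 fell, at a median of 1.5 on the log2 scale. Lif, leukaemia inhibitory factor, rose by 2.62 ± 0.19, while the LIF receptor Lifr fell (-1.08 ± 0.07) and the leptin receptor Lepr was not called (-0.65 ± 0.13). Among 7 tested beta chain, gamma chain and TSLP partners 5 rose and 0 fell. Csf2rb2 (3.77 ± 0.22) and Csf2rb (3.25 ± 0.23), the IL-3 beta chain and the beta chain shared by IL-3, IL-5 and GM-CSF, are near-identical copies whose split is uncertain, and the macrophage growth factor Csf1 was not called (0.22 ± 0.07). Csf1r, which binds IL-34, rose by 1.04 ± 0.17 but lost its call without sham 1 or without sham 2, as the count for that list fell to 3 in each case.

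Signalling genes downstream moved in both directions, in shares that depended on the scaling. Among all 13592 genes tested, 28.1% rose and 29.8% fell under TMM scaling. The shares that rose among genes induced by IL-4 and IL-13 and among IL-17 signalling genes were near that of all genes. In the IL-1 signalling list 9 of 19 rose and 4 fell (median 0.28), against 12 and 1 when scaled by library size alone: the adaptor Myd88 (0.99 ± 0.11) and the NF-kB subunit Nfkb1 (0.56 ± 0.04, not called without sham 2) rose, the inhibitor Tollip fell (-0.79 ± 0.08) and Tab2 was not called (-0.17 ± 0.05). Of 23 JAK, STAT and SOCS genes 10 rose and 5 fell (median 0.27), against 16 and 3 when scaled by library size alone, and 9 were called without sham 1 or without sham 2. Jak3, the kinase of the gamma chain, rose by 1.04 ± 0.06, whereas the STAT5 target Cish (-2.85 ± 0.08) and Stat5a (-0.87 ± 0.08) fell and Jak1 was not called (0.00, SE 0.05). Of 14 genes induced through gp130 and STAT3, 10 rose and 1 fell (median 1.39). Timp1, a metalloproteinase inhibitor, rose by 5.12 ± 0.22 and Hp, haptoglobin, by 3.14 ± 0.08, while Lrg1 fell (-1.25 ± 0.07) and Cebpb was not called (-0.63 ± 0.19). The 13 tested genes induced by IL-4 and IL-13 in mouse macrophages split, with 4 that rose and 2 that fell (median -0.04). Arg1, arginase 1, rose by 8.94 ± 0.29, but the lectin Mgl2 (-3.09 ± 0.09) and Retnla (-3.41 ± 0.17) fell and Tgm2 was not called (-0.04 ± 0.08). Of 8 tested IL-17 signalling genes 2 rose and 1 fell (7 were called when scaled by library size alone): the chemokine Cxcl5 (4.06 ± 0.61, not called without sham 1 or sham 2) and Nfkbiz (1.85 ± 0.27) rose, and Traf3 was not called (0.21 ± 0.10).

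Markers of cells known to carry these receptors were measured beside them, and their part in the results was not tested. The marker counts stand beside 28.1% of all tested genes that rose and 29.8% that fell. Of 7 tested T cell markers 3 rose, among them Thy1 (1.02 ± 0.06) and Cd4 (2.13 ± 0.29, not called without MI 2), with a sum of 88.2 and 93.3 CPM in MI 1 and 2 against 35.9 and 42.9 CPM in sham 1 and 2, and of 37.8 to 41.5 CPM in MI 3 to 6 against 16.1 to 20.2 CPM in sham 3 to 6. Most of this sum was Thy1, which fibroblasts also express, at 66.4 CPM in MI 1 and 2 and 26.8 CPM in MI 3 to 6, while Cd3e, Cd3g, Cd8a and Lck were not called. All 4 tested NK cell markers rose, with Gzma at 2.91 ± 0.28 and Klrk1 at 2.33 ± 0.19, and summed to 7.15 and 15.7 CPM in MI 1 and 2 against 1.62 and 3.29 CPM in sham 1 and 2, and to 23.5 to 24.7 CPM in MI 3 to 6 against 2.52 to 3.52 CPM in sham 3 to 6. These stand beside Il7r, Il2rb, Il2rg, Il21r, Il12rb1 and the IL-18 receptor, whose cells of origin were not tested. Il21r and Il12rb1 were lower in MI 3 to 6 than in MI 1 and 2, as were the T cell and macrophage sums. The NK cell sum was higher in MI 3 to 6. Neutrophil markers, of which 3 of 6 tested rose, with Csf3r called (2.16 ± 0.43, not called without sham 1 or sham 2) and S100a9 (0.89 ± 0.46), S100a8 and Retnlg not, summed to 29.6 and 73.2 CPM in MI 1 and 2 against 3.81 and 4.10 CPM in sham 1 and 2, and to 48.1 to 50.9 CPM in MI 3 to 6 against 26.8 to 28.9 CPM in sham 3 to 6. The largest part of this sum was Csf3r, at a mean of 33.9 CPM in MI 1 and 2 and 21.2 CPM in MI 3 to 6. MI 2, the highest library for Il1b and Il1rn, was the highest for the neutrophil sum. It was also the highest for the macrophage (5636 CPM), T cell (93.3 CPM), B cell (40.4 CPM) and epicardial (238 CPM) sums, but not for the NK cell sum. Fibroblast markers, of which 6 of 7 rose, Col1a1 by 5.37 ± 0.16 and Col3a1 by 4.68 ± 0.19, summed to 21402 to 54902 CPM in MI libraries against 2708 to 3040 CPM in sham libraries, beside Il33, Il11 and Il1r1. Of 2 tested ILC2 markers (Rora -0.10 ± 0.15, Icos 0.50 ± 0.41) 0 were called, and their sums lay above sham in one set and under it in the other, at 42.7 and 36.0 CPM in MI 1 and 2 against 27.7 and 23.8 CPM in sham 1 and 2, and 28.6 to 29.6 CPM in MI 3 to 6 against 34.1 to 40.3 CPM in sham 3 to 6. Most of the ILC2 sum was Rora. Its mean was 35.5 CPM in MI 1 and 2 against 24.5 CPM in sham 1 and 2. In replicates 3 to 6 it was 26.4 CPM in MI against 35.5 CPM in sham. No eosinophil marker was tested in both. Of 6 epicardial markers 3 rose, and they summed to 132 and 238 CPM in MI 1 and 2 against 51.7 and 48.6 CPM in sham 1 and 2, and to 31.6 to 33.7 CPM in MI 3 to 6 against 33.6 to 39.3 CPM in sham 3 to 6. In further lists, 1 of 4 B cell markers rose (Blnk 1.72 ± 0.33, not called without sham 1 or sham 2; Cd79b 0.57 ± 0.28 not called), 3 of 7 dendritic cell markers and 1 of 4 mast cell markers rose, 3 mural markers rose and 3 fell, 2 of 6 endothelial markers fell and 0 of 5 erythroid genes were called. No marker in these lists was at 0 in all libraries.

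The MI effect was measured apart in each set. Within replicates 1 and 2 alone 31 of 46 tested members were called higher and 3 lower, where 34.1% and 32.9% of all 14076 genes were. Within replicates 3 to 6, 31 of 44 were called higher and 5 lower, where 42.2% and 39.5% of all 13821 genes were. A larger fold change in replicates 1 and 2 was found for 30 of 41 members, and for 71.5% of all genes tested in both sets. The difference between sets, tested as an interaction in both tests, was called for 5 members, all with a smaller fold change in replicates 3 to 6: Il1f9 (-2.93, SE 0.35), Il33 (-2.15, SE 0.13), Il10ra (-2.10, SE 0.16), Il1r1 (-1.90, SE 0.13) and Il3ra (-1.43, SE 0.19). Among all 13592 genes 3.86% were called with a fold change more positive in replicates 1 and 2 and 6.67% with one more positive in replicates 3 to 6. The count of 5 depends on single libraries, at 0 without sham 1, 0 without sham 2, 13 without MI 1 and 9 without MI 2.

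The last members are the IL-4 induced amino acid oxidases, whose entries overlap. On chromosome 7 the span of Il4i1 (44836288 to 44840809) lies almost wholly within that of Il4i1b (44816370 to 44840804). In replicates 1 and 2 all reads of this pair were given to Il4i1b (4.73 and 6.90 CPM in MI against 3.08 and 4.54 CPM in sham) and Il4i1 was at 0. In replicates 3 to 6 Il4i1 had 2.42, 1.67, 1.95 and 1.45 CPM in MI against 1.40, 1.12, 0.837 and 0 CPM in sham, where sham 6 had 2.08 CPM on Il4i1b. The assignment therefore differs by set and, for sham 6, by library. Summed over both, the log2 fold change was 0.53 with all libraries and was not called (3 against 3 adjusted p = 0.162), and antisense exons of Tbc1d17 and Atf5 cover 85.9% of the Il4i1 exons.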

How the data were processed

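Libraries were made from oligo(dT)-enriched mRNA of total RNA, per the labels' protocols. Whether counting used strand was not given in the sources used here. Per the submitters' processing notes all libraries used build GRCm38, and Bowtie2, RSEM and DESeq2 are named for replicates 3 to 6 only, with no version. The authors deposited expected counts (fractional, unscaled), TPM and FPKM for 18050 genes in 12 libraries, and a separate FPKM table of 17723 genes for replicates 1 and 2, which holds 62 of the 71 members and was not tested. Of the 18050 genes, 425 are blank in replicates 1 and 2; none is a member.

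Rounded expected counts were the input of edgeR 4.0.16 (TMM scaling, filterByExpr, quasi-likelihood F test, Benjamini-Hochberg adjustment over all genes tested) in R 4.3.3, over 12 libraries with the set as covariate, with replicates 3 to 6 summed and counted once, and within each set. Standard errors are the fold change over the root of its F statistic. Intervals are exact at 95% on counts scaled by TMM library size, and both they and the floor of 3 counts over a group cover counting error only. Scripts were tested on simulated data. Gene positions and promoters came from RefSeq, and gene strands and exon overlaps from GENCODE (M21), both GRCm38. Alternatives used DESeq2 1.42.0 size factors and Wald test, limma 3.58.1 on log2(FPKM + 1) and log2(FPKM + 0.1), other filters and thresholds, a fit without the set, a replicate block and each library left out.

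The members, lists and call rule were chosen with earlier results of these data known. Values in every library, or the lowest, median and highest, are given for members at 1 CPM or more that were called with a log2 fold change of at least 1 and for their pair partners; other members at or above 1 CPM have means or fold changes, and scarcer ones counts. From each pathway list the 3 genes with the smallest adjusted p and the most abundant gene not called are named, except genes that are counted in their list but not reported here.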

Additional observations from a re-analysis of the deposited data

Results flagged for a closer look

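In 17 of 96 groups of 6 libraries, 1 library stood apart from the other 5 by Dixon's test at its 95% value. Its chance rate of about 1 in 20 groups assumes independent libraries of equal spread. Each group here pooled sets of unlike level and spread, so the count cannot be read against that rate. MI 2 was the library apart for Il1b (20.4 CPM), Il1rn (66.9 CPM), Il7r (55.3 CPM), Il2rb (9.25 CPM), Il2rg (59.3 CPM), Il18 (7.06 CPM) and Il1a (3.01 CPM) on the high side and for Il1f9 (6.45 CPM) on the low side. MI 1 was lowest for Il6 (1.97 CPM) and Il18bp (14.8 CPM). Sham 2 was highest for Il2rb (2.30 CPM), Il2rg (23.6 CPM), Il4ra (34.5 CPM), Il22ra1 (1.34 CPM) and Il12b (0.148 CPM). Sham 1 was lowest for Il1rn (0.229 CPM) and sham 5 highest for Il11 (0.611 CPM). All but 1 of these libraries belong to replicates 1 and 2, whose spread was wider than that of replicates 3 to 6.

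The MI effect differed between the sets for 5 members by the test of the difference itself, coded as replicates 3 to 6 minus replicates 1 and 2 on the log2 scale: Il1f9 by -2.93, Il33 by -2.15, Il10ra by -2.10, Il1r1 by -1.90 and Il3ra by -1.43. For Il1f9 and Il33 the sham levels of the sets also differed, with means of 0.897 and 7.70 CPM in sham 1 and 2 and of 8.79 and 17.9 CPM in sham 3 to 6. What sets the sets apart was not tested.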

How the results depend on the processing

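The count of members called in both tests was 30, and it lay between 17 (without sham 1) and 31 when each library was left out, between 20 and 34 under the other settings tried at the same threshold, 23 with a further 2-fold minimum and 16, all higher, at an adjusted p under 0.01. Over all genes the count was 7878, with a range of 5234 to 7960 over left-out libraries, 4521 without the set as a term, 4922 at an adjusted p under 0.01 and 4310 with a 2-fold minimum. The count of members whose effect differed between sets was 5, with a range of 0 to 13 over left-out libraries, 0 at an adjusted p under 0.01 and 22 by the 12-library test alone. Il12rb2 turned sign in limma tests of log2(FPKM + 1), at 0.06, and of log2(FPKM + 0.1), at 0.13. Members called within replicates 1 and 2 ranged from 23 to 33 and within replicates 3 to 6 from 36 to 39 over left-out libraries. Il6st, Il16, Il15, Il11ra1 and Il18bp, not called under TMM, were called higher when scaled by library size alone. The cause of these changes was not tested, apart from the thresholds, which call fewer genes by construction.

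Deviations of same-numbered libraries from the mean of their set and group correlated at 0.0601 in replicates 1 and 2 and between -0.0515 and -0.0128 in replicates 3 to 6. With 2 libraries a group, replicates 1 and 2 share the same value by construction. Spread within replicates 3 to 6 was small, so these values cannot decide whether replicate numbers pair the libraries. With the number as a replicate block, 25 members and 6678 genes were called in both tests, 34 members within replicates 1 and 2 and 35 within replicates 3 to 6, and Il12rb2 (-0.55), Il1f9 (1.1), Il27ra (0.63), Il34 (0.51) and Il6ra (0.74) lost their calls. With 2 libraries a group in the first set, members under about 1 CPM were limited by depth.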
